A study of Rattus norvegicus with 92 samples.

Results

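Lung was one of 8 tissues collected from male Wistar-Kyoto rats after a single inhalation of acrolein or of air, and it supplied 14 of the 92 RNA sequencing samples. The lung samples were selected by their tissue label, with 8 from rats that breathed air (numbered 1 to 8) and 6 from rats that breathed acrolein (numbered 9, 10, 12, 13, 14 and 15). The rats were adults of 12 to 13 weeks, an inbred strain with no genetic change introduced, and all were held in nose-only tubes for 4 h. The chamber of the acrolein group was raised through 0.1, 0.316 and 1 ppm during the first 30 min and then held at 3.16 ppm for 3.5 h, while the air group received 0 ppm throughout. Necropsies began directly after exposure and were finished within 2 h, so the lungs were taken between the end of exposure and 2 h later. A piece of lung holds many cell types, and in such bulk tissue fewer cells of a type cannot be told apart from less RNA per cell. Only male samples entered, and nothing in the labels states which lobe or how much airway a piece held.

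Acrolein is a small reactive aldehyde found in smoke from tobacco, wood and cooking oil. It binds to thiol and amine groups of proteins and glutathione, and it is known as a potent sensory irritant of the airways. Because it is soluble and reactive, much of an inhaled dose is taken up in the nose before the air reaches the alveoli, where type I and type II epithelial cells, capillary endothelium, fibroblasts and macrophages make up the tissue. Cells exposed to reactive aldehydes are known to raise genes under the transcription factor NRF2, which include enzymes of glutathione synthesis, and genes of the heat shock response. The comparison addressed here was whether RNA levels in lung differed between the acrolein and air groups.

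The lung table held 20508 rows, of which 19719 carried an Ensembl transcript identifier and 789 an Ensembl gene identifier. A row was tested when at least 2 of the 14 samples had a value above 0, which kept 20052 rows and left out 456. The tables did not pair identifiers with gene symbols, and 0 of the lung identifiers matched the RefSeq gene table of 47357 genes. Genes of the NRF2, heat shock, inflammation and cell type lists were therefore not looked up, and rows are described by identifier, level and behaviour across tissues. Values are normalized counts, the read count of a row in a sample divided by that sample's size factor. Recovered reads per library ran from 8039391 to 19943775 in air (median 10937180.5) and from 8014891 to 30194066 in acrolein (median 18402805.5), and the mean was 6270176 reads higher in acrolein (two-sided exact permutation test over 3003 splits, p = 0.123). The 10 largest rows took 5.27% to 7.09% of the reads in air and 5.93% to 9.04% in acrolein.

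Each of the 14 samples was closest to lung among the 8 tissues. Its rank correlation with the mean of the other lung samples across rows was between 0.967 and 0.9889, and the next tissue, adipose, gave 0.875 to 0.893. A group of 32 rows was largely restricted to lung, each with a mean of at least 500 in lung and under 1 in 20 of that level in every other tissue. Relative to each row's mean over the air samples, the median of these rows was between 0.828 and 1.06 in the air samples. It was between 0.875 and 1.07 in the acrolein samples, so the groups overlapped. None of the 32 was called by limma, against 0.00499% of all tested rows. At an unadjusted limma p under 0.05 there were 2 higher and 2 lower in acrolein, against 4.38% and 3.29% of all tested rows.

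Across the 20052 rows, 1 passed the test for a difference between acrolein and air, and it was higher in acrolein. The call required a Benjamini-Hochberg adjusted p of at most 0.1 from limma on log2(normalized count + 1) and a change above 1.2-fold in either direction, and it was met by 0.00499% of rows. At an unadjusted p under 0.05 there were 1538 rows (7.67%), of which 879 were higher in acrolein (4.38%) and 659 lower (3.29%). The next smallest adjusted p was 0.111, shared by 2 rows. The median log2 difference over all rows was -0.0077, and 49.1% of rows had a higher mean in acrolein. For 11902 rows (59.4%) the 95% interval of the difference lay within 2-fold in both directions, and for 3819 rows (19.05%) it lay within 1.5-fold. Of the 11902 rows, 648 had a mean under 1 normalized count, where the added count of 1 compresses a fold difference and the interval does not bound it. For the rows outside the 11902 the interval reached past 2-fold in at least 1 direction, so a row without a call is not shown to be unchanged.

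**Figure D1:**
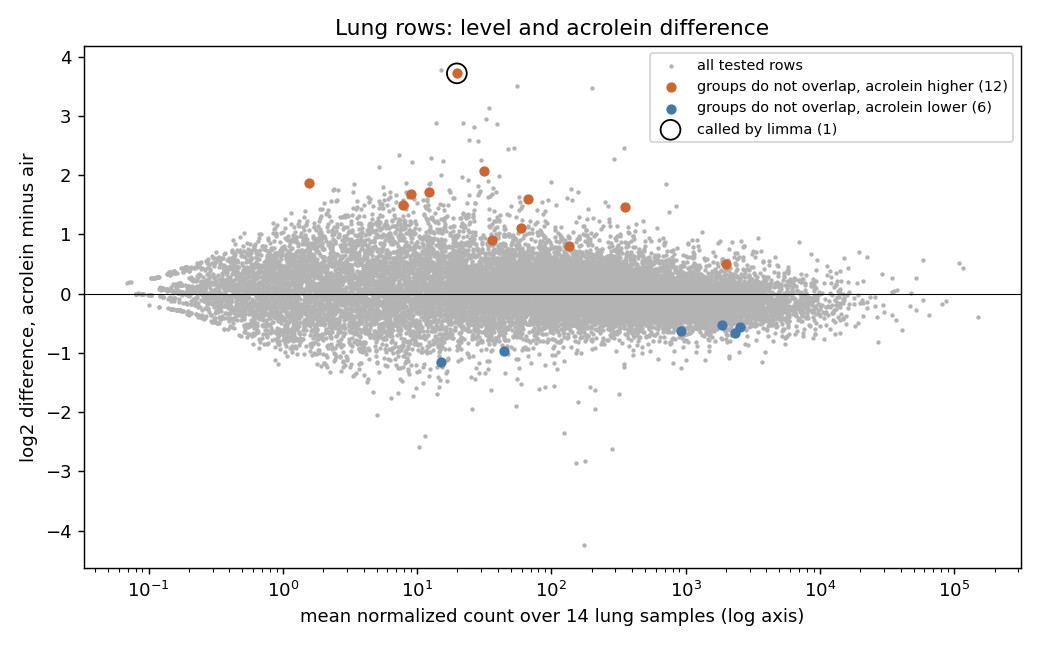
Log2 difference between acrolein and air in lung (vertical axis, difference of group means on log2(normalized count + 1)) against the mean normalized count over the 14 lung samples (horizontal log axis), 1 point per tested row of 20052. The circled point is the row that limma called, at a log2 difference of 3.72, and the coloured points are the 12 higher and 6 lower rows whose 2 groups of values did not overlap.

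The called row, ENSRNOT00000032016, went from near 0 in air to a mean of 43.5 normalized counts in acrolein. Its normalized counts in the air lungs 1 to 8 were 2.61, 3.63, 2.23, 3.36, 0, 0, 1.66 and 2.78. In acrolein lungs 9, 10, 12, 13, 14 and 15 they were 13.1, 80.3, 16.7, 21.7, 43.6 and 85.4. The groups did not overlap: the lowest acrolein lung, number 9, was above the highest air lung, and lungs 10 and 15 were highest. The means were 2.03 ± 1.40 normalized counts (SD, n = 8) in air and 43.5 ± 32.3 (SD, n = 6) in acrolein, with a log2 difference of 3.72 (SE 0.51, 95% interval 2.65 to 4.79) and an adjusted p of 0.0167 in limma. The air level rested on 14 reads in all, at most 3 in any library, against 362 reads in acrolein, with 13 to 161 per library. In recovered reads corrected for size factor the ratio of acrolein to air was 22.5, with an exact 95% interval of 13.2 to 41.5 that covers counting error only. edgeR (adjusted p = 0.0116) and DESeq2 (adjusted p = 8.68e-09) on the recovered reads called the same row. Without the pair of acrolein lungs whose labels carry a capital prefix (14 and 15), its limma adjusted p was 0.201 with a log2 difference of 3.30.

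Levels of ENSRNOT00000032016 in the other tissues were compared in separately normalized tables. Nasal epithelium, the first tissue that the inhaled gas meets, held 12.3 ± 4.58 normalized counts (SD, n = 5) in air and 37.2 ± 15.5 (SD, n = 6) in acrolein, a log2 difference of 1.47 with an unadjusted limma p of 0.00346 and an adjusted p of 0.231. No adrenal, adipose, hippocampus, hypothalamus, liver or muscle sample exceeded 5.34 normalized counts, and all 5 air livers were at 0. The row was thus at a low level outside the respiratory tract in both exposure groups, and the nasal difference missed the threshold after adjustment. In the air groups lung was as low as other tissues, with a mean of 2.03 against 2.70 in adipose tissue and 1.57 in muscle.

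The values of both groups were fully separated in 18 of the 20052 rows (0.0898%), 12 of them higher in acrolein (0.0598%) and 6 lower (0.0299%). The 12 higher rows had log2 differences from 0.50 to 3.72 and a median of 1.55, and 7 of them reached a mean of 20 normalized counts. The 6 lower rows had log2 differences from -1.16 to -0.52, and 5 of them reached that mean. Of these 12 rows at a mean of at least 20, the largest differences in each direction are given in full.

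ENSRNOT00000086275 had the next largest higher difference after the called row, among the rows without overlap at a mean of at least 20. Its normalized counts were 18.2, 12.1, 17.9, 10.1, 0, 19.3, 14.98 and 25.9 in air lungs 1 to 8. In acrolein lungs 9, 10, 12, 13, 14 and 15 they were 63.4, 29.7, 88.0, 71.0, 44.1 and 29.7. Air lung 5 had no read, and acrolein lungs 10 and 15 lay closest to the air range. The means were 14.8 ± 7.69 (SD, n = 8) and 54.3 ± 23.7 (SD, n = 6) normalized counts. The log2 difference was 2.07 (SE 0.59, 95% interval 0.84 to 3.31), and the row missed the threshold in limma (adjusted p = 0.563) and in edgeR (adjusted p = 0.312) and passed it in DESeq2 (adjusted p = 0.00728).

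ENSRNOT00000107158 had the largest lower difference among the rows without overlap at a mean of at least 20. Its normalized counts were 46.9, 43.6, 50.6, 63.8, 62.9, 52.6, 71.6 and 55.5 in air lungs 1 to 8. In acrolein lungs 9, 10, 12, 13, 14 and 15 they were 36.2, 33.2, 39.4, 37.8, 19.03 and 13.3. Acrolein lungs 14 and 15 were the lowest, and the other 4 lay between 33.2 and 39.4. The means were 55.9 ± 9.47 (SD, n = 8) and 29.8 ± 10.9 (SD, n = 6) normalized counts, with a log2 difference of -0.97 (SE 0.28, 95% interval -1.55 to -0.38). It was not called by limma (adjusted p = 0.574), edgeR (adjusted p = 0.401) or DESeq2 (adjusted p = 0.109).

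ENSRNOT00000027402 was a row of much higher level. Its normalized counts were 2465, 3414, 2819, 3399, 2365, 2194, 2762 and 2546 in air lungs 1 to 8. In acrolein lungs 9, 10, 12, 13, 14 and 15 they were 1995, 1905, 2007, 1739, 1793 and 1094. Lung 15 stood below the other 5 acrolein lungs, which lay within 1739 to 2007. The means were 2746 ± 455 (SD, n = 8) and 1755 ± 341 (SD, n = 6) normalized counts, with a log2 difference of -0.66 (SE 0.17, 95% interval -1.004 to -0.31). limma (adjusted p = 0.482) and edgeR (adjusted p = 0.345) did not call it, and DESeq2 did (adjusted p = 0.0468). In separately normalized tables the row was also high in brain, with 3021 ± 655 normalized counts in hippocampus (SD, n = 6) and 2276 ± 421 in hypothalamus (SD, n = 6) of the air groups. Its log2 difference was -0.12 in hippocampus and -0.22 in hypothalamus, with adjusted p of 0.902 and 0.963 in limma.

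**Figure D2:**
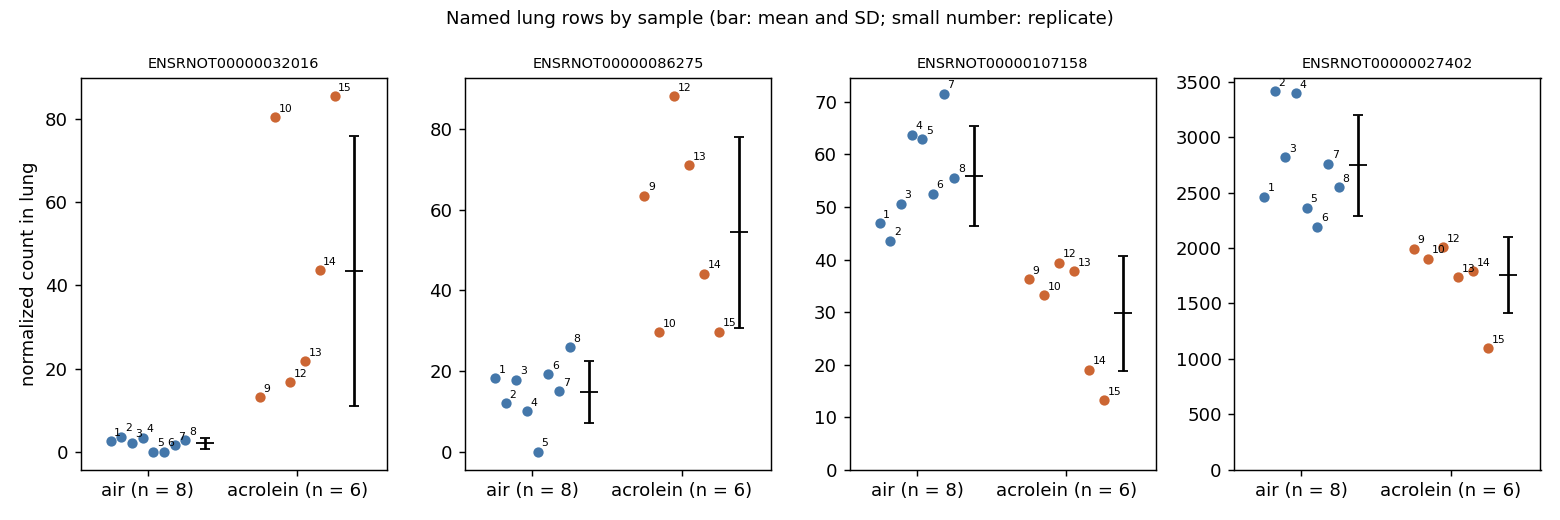
Normalized counts of the 4 named rows in each lung sample, 8 air (blue) and 6 acrolein (orange), with the replicate number beside each point and the mean and SD as a bar at the right of each group. In all 4 panels the groups do not overlap, and the called row ENSRNOT00000032016 lies at 0 to 3.63 in air and at 13.1 to 85.4 in acrolein.

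The count tools made more calls than limma. edgeR called 6 rows (0.0299%), all higher in acrolein, and DESeq2 called 95 of the 16328 rows to which it gave an adjusted p (0.582%), 80 higher and 15 lower. All 6 edgeR rows were among those of DESeq2. The 80 higher rows included 9 whose groups did not overlap and 78 at an unadjusted limma p under 0.05, against 0.0898% and 7.67% of all tested rows. The 15 lower rows included 5 without overlap, and all 15 were at an unadjusted limma p under 0.05. These counts rest on the same samples as the DESeq2 calls, so they are not independent support for them. In 4 of the 80 and 1 of the 15, a single sample held more than 50% of the row's summed value. The median mean level was 86.3 normalized counts in the 80 higher rows and 599.8 in the 15 lower rows.

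The 5 edgeR rows beside ENSRNOT00000032016 had log2 differences from 1.37 to 1.85 in limma, with adjusted p from 0.111 to 0.325. The first ran from 122 to 258 normalized counts in air and from 283 to 803 in acrolein, without overlap. Its mean in nasal epithelium was 3046 in air and 14691 in acrolein, a log2 difference of 2.26 with an adjusted p of 0.162 in limma. The second was one of the 32 rows largely restricted to lung. It ran from 183 to 767 in air and from 580 to 1639 in acrolein, and acrolein lung 14 alone lay within the air range.

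The third of these rows also passed the test in nasal epithelium. In lung it ran from 301 to 654 normalized counts in air and from 470 to 1688 in acrolein, with acrolein lung 9 inside the air range. In nasal epithelium its mean was 281 in air and 19326 in acrolein, a log2 difference of 5.94 with an adjusted p of 1.09e-05 in limma. The fourth ran from 30.0 to 84.3 in air and from 76.5 to 253 in acrolein lungs, again with lung 9 inside the air range, and in nasal epithelium its log2 difference was 0.93 with an adjusted p of 0.0223 in limma. The fifth ran from 16.8 to 48.2 in air and from 57.8 to 201 in acrolein, and was near 0 in nasal epithelium, with means of 1.13 and 3.55.

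Values scattered more among the acrolein lungs than among the air lungs. Of the 15253 rows whose mean reached 10 normalized counts, 12148 (79.6%) had a larger SD of log2(normalized count + 1) in acrolein, and the median SD was 0.36 in air and 0.56 in acrolein. The share with a larger SD in acrolein was 48.0% at a mean under 1, 51.0% from 1 to 10, 68.1% from 10 to 100, 83.6% from 100 to 1000 and 88.2% above. Across rows, pairs of air lungs correlated at a median of 0.969 (28 pairs) and pairs of acrolein lungs at a median of 0.948 (15 pairs), with 0.958 for pairs of an air and an acrolein lung (48 pairs). These correlations are across rows, which are not independent replicates, and no test of the spread was made. Without acrolein lungs 14 and 15 the share with a larger SD in acrolein was 71.0%, and with all reads thinned to the smallest library it was 80.8%.

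**Figure D3:**
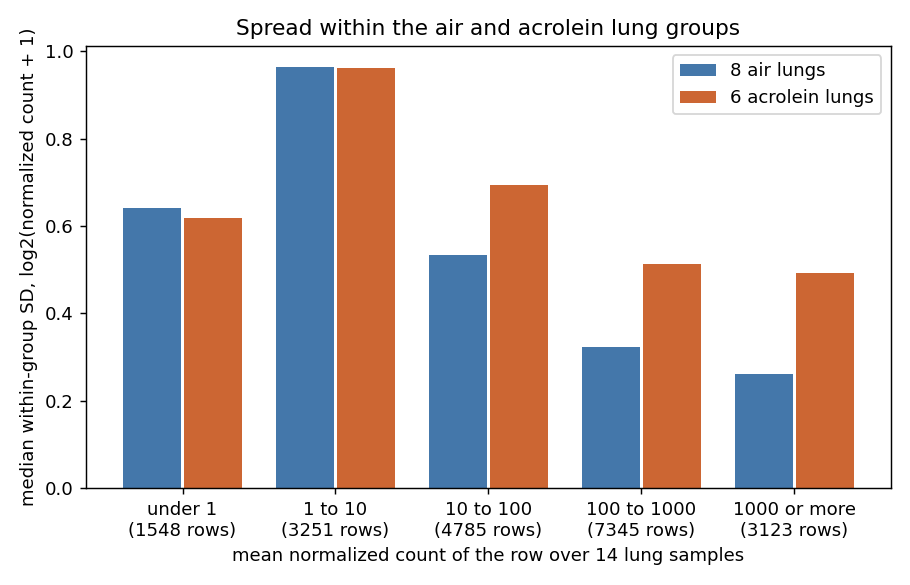
Median within-group SD of log2(normalized count + 1) for 8 air lungs (blue bars) and 6 acrolein lungs (orange bars), by classes of the row's mean normalized count, with the number of rows in each class under the axis. At means of 1000 or more the median SD is 0.26 in air and 0.49 in acrolein, while below a mean of 10 the bars are nearly equal.

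The acrolein lungs did not form 1 group in a principal component analysis. The first component took 22.7% of the variance, and acrolein lungs 12, 9 and 10 scored 83.8, 69.2 and 22.7 on it, while lungs 14, 13 and 15 scored -55.2, -58.8 and -74.0. Air lung 6 scored 69.4, beside acrolein lungs 9 and 12, and the other 7 air lungs lay between -23.8 and 9.65. On the second component (16.5% of the variance) acrolein lung 10 fell among the air lungs at -45.4, and the other 5 acrolein lungs scored from 28.4 to 55.5. Air lung 6 lay within the range of those 5 at 41.0, and the other 7 air lungs scored from -56.2 to 5.76. Acrolein lung 10 was the smallest library, at 8014891 reads, and air lung 6 the largest of the air group, at 19943775. Air lungs 4 and 7, lowest on this component at -56.2 and -52.3, had 8284556 and 8039391 reads. Acrolein lung 13 had 10086246 reads and scored 50.6. The part of library size in these scores was not tested. Without air lung 6, limma called 8 rows, edgeR 43 and DESeq2 467. Without acrolein lung 10 the counts were 1, 16 and 561, and without acrolein lung 9 they were 6, 12 and 119. limma called 2 rows without air lung 8, acrolein lung 13 or acrolein lung 14, and 1 row without any of the others. edgeR called 1 row without air lung 2, 3, 4, 7 or 8 or acrolein lung 15, 2 without acrolein lung 13, 3 without acrolein lung 12 and 4 without air lung 1 or 5 or acrolein lung 14. DESeq2 called 35 rows without air lung 7, 40 without air lung 4, 42 without acrolein lung 15, 47 without air lung 2 or 3, 59 without air lung 1 and 63 without acrolein lung 13, and from 78 to 99 without air lung 5 or 8 or acrolein lung 12 or 14. The called row ENSRNOT00000032016 passed the limma threshold with each of the 14 samples left out in turn, at adjusted p from 0.00521 to 0.0775.

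**Figure D4:**
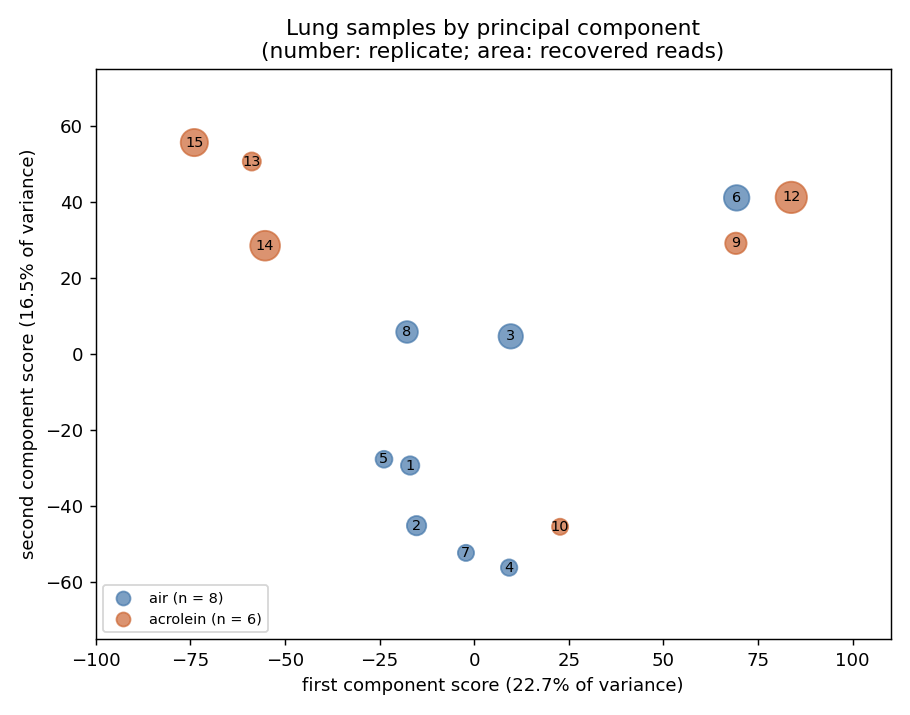
First against second principal component score of the 14 lung samples, on log2(normalized count + 1), with the replicate number in each point and the point's area in proportion to recovered reads. The acrolein lungs (orange) lie at both ends of the first component, from -74.0 to 83.8, and 7 of the 8 air lungs (blue) lie between -23.8 and 9.65.

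RNA of other tissues was read from rows restricted to one of them, with a mean of at least 500 there, under 1 in 20 of it in the other tissues and under 1 in 200 in lung, as the median over those rows of the lung value in millionths of that tissue's own mean. The 115 rows restricted to muscle had a median of 156 millionths in air (117 to 473) and 402 in acrolein (88.4 to 1322), with acrolein lungs 14 and 15 highest at 1322 and 1260. Of 114 such rows tested in lung, 17 were higher and 2 lower in acrolein at an unadjusted p under 0.05, against 4.38% and 3.29% of all lung rows, with a median log2 difference of 0.62 and 0 calls. The 62 rows restricted to nasal epithelium stood at 0 in 5 of the 8 air lungs, and air lungs 5, 8 and 2 were at 8.95, 51.7 and 269 millionths. Acrolein lungs 9 and 10 were also at 0, lungs 13 and 12 were at 56.0 and 75.2, and lungs 15 and 14 were highest at 349 and 531, so the groups overlapped. Rows of adipose tissue (11) were at 12627 millionths in air lung 8 and at 11142 in acrolein lung 9, with all other lungs under 2392. Rows of the adrenal (16) had a median of 762 millionths in air (102 to 1852) and 236 in acrolein (115 to 2571), with acrolein lung 9 at 2571 and the other 5 acrolein lungs at or under 340. Their median log2 difference was -0.67, and none was at an unadjusted p under 0.05. Rows of liver (223) ran from 0 to 1740 in air and from 0 to 656 in acrolein, with 0 higher and 1 lower at that p. How far RNA of other tissues entered the differences above was not tested. Those levels were set across separately normalized tables.

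Rows that acrolein raised in nasal epithelium were followed in lung. In nasal epithelium limma called 0.651% of the rows tested, 120 of them higher in acrolein (0.591%), and 115 of them were tested in lung. In lung 85 of the 115 (73.9%) had a higher mean in acrolein, against 49.1% of all lung rows, and 25 (21.7%) were higher at an unadjusted p under 0.05, against 4.38% of all lung rows. None of the 115 was lower at that level, and none was called in lung by limma after adjustment. The median log2 difference of the 115 in lung was 0.24, against -0.0077 over all rows. The 115 included ENSRNOT00000019192 and ENSRNOT00000020603, which are among the edgeR rows described above and were called in lung by both count tools. Each had an adjusted p of 0.0949 in edgeR and 0.000342 in DESeq2. The nasal list was made on nasal samples alone, but most of those carried the same numbers as lung samples of their exposure group. By these numbers the lungs came largely from the same rats, and rows are not independent of each other. Where the lung mean reached 10, 19 of 82 were higher at that p (4.54% of all rows at such means), and below it 6 of 33 were (3.90%).

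By the median over these 115 rows, 3 of the 6 acrolein lungs lay above all air lungs, while single rows could be highest in another lung. The median over the rows of the log2 distance from the air mean was 0.73 in acrolein lung 13, 0.57 in lung 14 and 0.37 in lung 15. It was 0.07 in lung 9, -0.11 in lung 12 and -0.15 in lung 10, inside the range of the air lungs, which ran from -0.34 in air lung 4 to 0.17 in air lung 3. Acrolein lungs 13, 14 and 15 had 92, 84 and 85 of the 115 rows above the air mean, and the other acrolein lungs had 51 to 60. The same 3 lungs scored lowest on the first component, and lungs 14 and 15 had the highest levels of muscle and nasal rows. Their part in this result was not tested. Without lungs 14 and 15, 16 of the 115 were higher at an unadjusted p under 0.05. In that setting 1322 of all 20052 lung rows were at that p, against 1538 with all samples. These counts over all rows take both directions together.

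**Figure D5:**
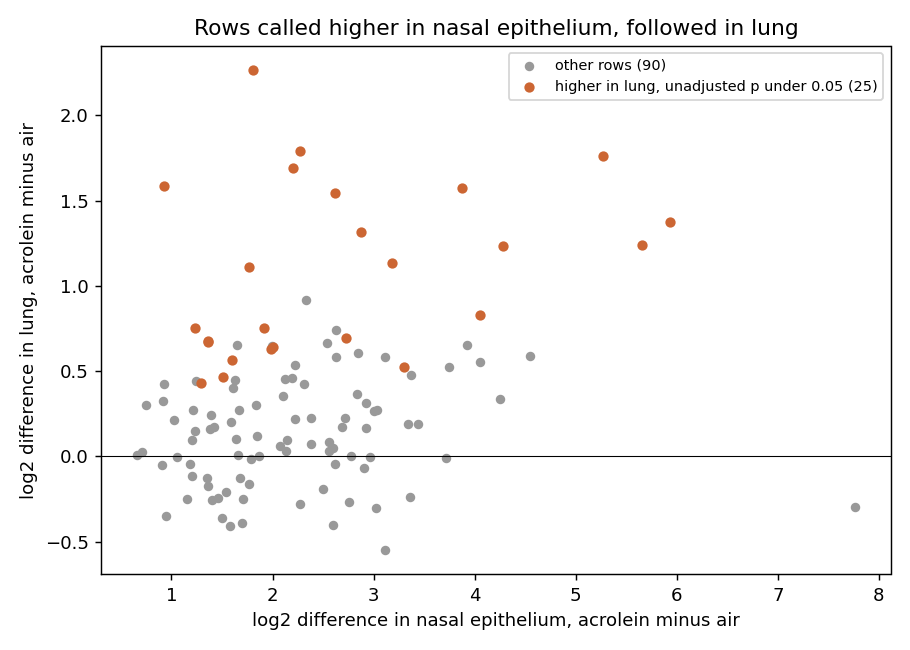
Log2 difference between acrolein and air in lung (vertical axis) against that in nasal epithelium (horizontal axis) for the 115 rows called higher in nasal epithelium and tested in lung. The 85 rows above the line at 0 had a higher mean in acrolein lungs, and the 25 orange points were higher in lung at an unadjusted p under 0.05.

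Of 12 rows that were called lower in nasal epithelium, 2 were lower and 0 higher in lung at an unadjusted p under 0.05. Of all lung rows 3.29% were lower and 4.38% higher at that p. A higher mean in acrolein lungs was found in 5 of the 12 (41.7%), against 49.1% of all lung rows. Rows that limma called in liver (0.368% of those tested there) were followed in the same way. They are not the longer liver list that the paper reports from DESeq2. Of 36 rows called higher in liver and tested in lung, 3 had a higher mean in acrolein lungs (49.1% of all lung rows had) and 3 were lower at an unadjusted p under 0.05 (3.29% of all lung rows were), with a median log2 difference of -0.28. Of these 36 rows, 8 were among the 16 rows restricted to the adrenal, which had a median log2 difference of -0.67 in lung. The part of adrenal RNA in this result was not tested. Of 32 rows called lower in liver, 25 had a higher mean in acrolein lungs, against 49.1% of all lung rows, and the median log2 difference was 0.15. Of these 32 rows 1 was higher at an unadjusted p under 0.05, a share below the 4.38% of all lung rows. None of these rows was called in lung by limma.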

How the data were processed

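The paper describes RNA extraction for frozen liver, with an RNA integrity cutoff of 7 and 75 cycles of sequencing after 16 cycles of PCR. It does not describe lung separately, so the same steps are assumed for the 14 lung samples. Per the methods and labels, the authors mapped reads to rn7 with Ensembl release 105 in Partek Flow and normalized counts with DESeq2. What they deposited is a signal: counts of reads scaled by the size factor of each sample, with each tissue normalized separately. Dividing each lung column by its step gave whole reads in 100% of values (within 0.01 of a read). Few reads limit the precision of low rows. The interval of the read ratio covers counting error only, and the limma intervals cover the spread between samples. The sources do not name separate batches, and whether the samples of a group came from separate animals is given only by their numbers, so p-values measure the spread between these samples.

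limma 3.58.1 (lmFit, eBayes with a trend, R 4.3.3) was run on log2(normalized count + 1) over rows above 0 in at least 2 lungs. A call needed an adjusted p no larger than 0.1 with a change above 1.2-fold. The study applied these thresholds to DESeq2 results rather than to limma, and DESeq2 at these thresholds called 95 lung rows. A fold on this scale understates the change of low rows. edgeR 4.0.16 (quasi-likelihood) and DESeq2 1.42.0 took the recovered reads as alternatives. DESeq2 gave no adjusted p to 4180 rows, which were left as NA, and replaced outlying air values in 69. Functions were tested on simulated reads. Named rows were those limma called, then the largest differences among rows whose groups did not overlap and whose mean was at least 20, to at most 2 in each direction because symbols were not matched. Gene and marker lists could not be applied for the same reason. Rows and lists were chosen with earlier results of these data known.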

Additional observations from a re-analysis of the deposited data

Results flagged for a closer look

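In 26 groups of 4 to 10 values, 6 had 1 sample far from the others by Dixon's criterion, which chance gives in about 1 of 20 groups. Air lung 8 had rows of adipose tissue at 12627 millionths of their adipose level, with the next air lung at 2392. Acrolein lung 9 had the same rows at 11142 millionths, with the next acrolein lung at 2230. Acrolein lung 9 also had rows of the adrenal at 2571 millionths, with the next acrolein lung at 340. Air lung 2 had rows of nasal epithelium at 269 millionths, with the next air lung at 51.7. Air lung 6 scored 69.4 on the first principal component, with the next air lung at 9.65. ENSRNOT00000027402 was at 1094 normalized counts in acrolein lung 15, with the next acrolein lung at 1739. No cause of these values was tested.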

How the results depend on the processing

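No paired analysis was possible because air lungs are numbered 1 to 8 and acrolein lungs 9 to 15, with no shared number. limma's count of 1 called row became 0 with a pseudocount of 0.1 (1509 rows at an unadjusted p under 0.05), with no filter on low values (1627) and without the 2 acrolein samples with a capital prefix (1322). It became 2 with sample weights or values rescaled to the same total, 3 with a mean of at least 10 or an adjusted p of at most 0.2, and 4, of which 3 were higher, with reads thinned to the smallest library. edgeR gave 6, with or without a filter, and DESeq2 gave 95, with or without replacement of outlying values. Leaving out each sample gave 1 to 8 calls in limma, 1 to 43 in edgeR and 35 to 561 in DESeq2. The lowest DESeq2 count was without air lung 7. The difference in mean reads was 3974453 to 8410288 with 1 sample left out, and passed p of 0.05 without acrolein lung 10 (exact permutation p = 0.0427). The count of nasal-raised rows higher in lung was 16 without the capital-prefix samples in place of 25, and 18 to 28 in all other settings run. ENSRNOT00000032016 kept its direction in 29 settings and lost its call in 3. The settings with thinned reads, without replacement and with samples left out in the count tools were chosen after seeing the data. The cause of these changes was not tested.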
